A study of Homo sapiens with 8 samples.

Results

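The genes described here encode E1 and E2 enzymes for ubiquitin, SUMO and NEDD8, the first 2 enzymes of the cascades that attach these small proteins to other proteins. They were chosen as a list of 36 genes by their function, of 20503 genes named on the array. A probe matched 35 of them by its RefSeq accession, all 35 passed the filter on dim probes and were tested among 15561 genes, and UBE2C was not analysed here. RNA came from MDAH (MDAH-2774) and SKOV3 cells, both human epithelial ovarian cancer lines, and was hybridized to 8 single-colour Agilent arrays. In each line 2 arrays held control cells, in which SFPQ was not silenced, and 2 held cells transduced with a lentiviral shRNA against SFPQ, 1 array for each of sh-SFPQ#2 and sh-SFPQ#3. The sources differ on whether both controls of a line carried the control shRNA or 1 was parental. No drug treatment is given for the arrayed cells, the silenced cells of a line were 1 array per shRNA, and nothing states that the arrays of a line came from separate cultures, so that p-values measure the spread between these arrays. SFPQ is an RNA-binding splicing factor, and the study asked about its role in these cells.

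An E1 enzyme spends ATP to bind the modifier through a high-energy thioester bond and passes it to the cysteine of an E2 enzyme. The E2, usually together with an E3 ligase, then transfers the modifier to a lysine of the target, and the E2 often decides which kind of chain is built. Cells have few E1 enzymes and many more E2 enzymes, and through them these cascades control protein breakdown by the proteasome, the cell cycle, the repair of DNA crosslinks and the removal of misfolded proteins from the endoplasmic reticulum (ER).

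Levels are given as log2 of the background-subtracted signal minus the 75th percentile of the array, so that 0 is the brightness of the probe at that percentile, and they are compared between arrays for 1 gene and not between genes. A gene passed the test, or was called, when its adjusted p was under 0.05 (limma, Benjamini-Hochberg over 15561 genes). The 75th percentile of the signal ranged from 244 (MDAH, sh-SFPQ#3) to 496, and 47.7% to 57.1% of 50599 probes on an array were well above background. Of 6 epithelial markers 5 (KRT8, KRT18, KRT19, EPCAM and MUC1) were well above background on all 8 arrays and CDH1 on 7. Of the 6, 4 were lower in SKOV3 than in MDAH controls and 2 were higher. They ran from KRT19 at -4.75 (log2), with EPCAM at -3.64, to MUC1 at 1.40. Of 6 ovarian markers PAX8, SOX17 and ERBB2 were well above background on all 8 arrays, WT1 on 4 and MUC16 on 2, and MSLN was not tested. Of 9 markers of leukocytes, endothelium and stroma 6 were tested, with PTPRC, CD14, CD68 and CDH5 well above background on all 8 arrays. None of the 6 was called on silencing, beside 5.64% of all genes in the average of both lines. SFPQ itself measured 3.64 and 3.91 in the MDAH controls, 2.45 under sh-SFPQ#2 and 2.10 under sh-SFPQ#3. The SKOV3 arrays gave 4.84 and 4.66 in the controls, 3.01 under sh-SFPQ#2 and 2.48 under sh-SFPQ#3. It fell 2.83-fold in MDAH cells (adjusted p = 0.0329) and 4.02-fold in SKOV3 cells (adjusted p = 0.03), and the silenced arrays lay below the controls in both lines. Leaving out any control array of either line or the sh-SFPQ#3 array of the line ended these calls, and without 1 array the change ran from -1.68 to -1.33 (adjusted p up to 0.218) in MDAH cells and stayed at or below -1.74 (adjusted p up to 0.119) in SKOV3 cells. The calls were also lost with no filter (adjusted p = 0.051 and 0.0599) and with each line fitted alone (0.0629 and 0.158), and that in MDAH cells with median centring (0.061).

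On silencing of SFPQ, 1 of 35 E1 and E2 genes was called, SAE1, an E1 subunit for SUMO that was lower across both lines. None of the 35 was called in MDAH cells, against 2.03% of all genes, and none in SKOV3 cells, against 0.996% (limma). An unadjusted p under 0.05 was found for 5 members in each line, beside 3592 (MDAH) and 3032 (SKOV3) of 15561 genes. In the average of both lines SAE1 was the one call, 1 of 35 against 5.64% of all genes. A difference in the effect of silencing between the lines was called for 0 of 35 members, against 0.0964% of all genes. For that difference 5 members had an unadjusted p under 0.05, beside 2322 of 15561 genes. The members' median change was 0.20 on the log2 scale in MDAH cells, with 24 of 35 above 0, beside 0.10 over all genes, and -0.20 in SKOV3 cells, with 30 of 35 below 0, beside -0.04 over all genes. The median in MDAH cells was 0.08 beside 0.05 over all genes with quantile normalization, and 0.05 beside 0.02 with normexp and quantile normalization. The changes with each shRNA are plotted by role, with UBE2E2 far below the rest in both lines with sh-SFPQ#3.

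**Figure D1:**
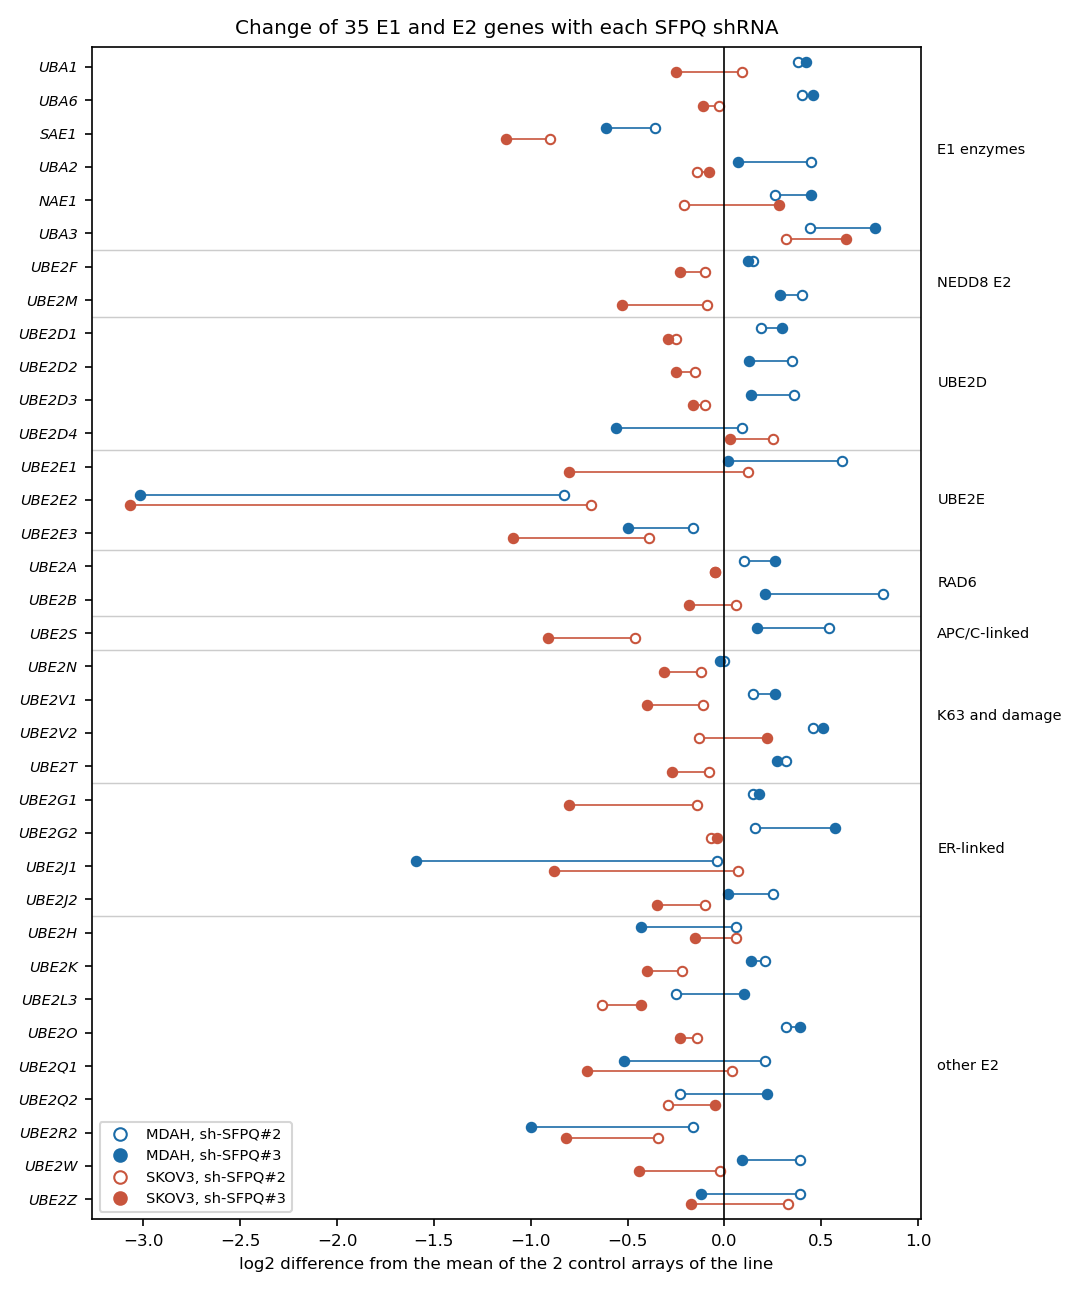
Log2 difference of each silenced array from the mean of the 2 control arrays of its line (x axis) for 35 E1 and E2 genes, grouped by role (y axis), with open circles for sh-SFPQ#2, filled circles for sh-SFPQ#3, blue for MDAH and red for SKOV3. Most points lie close to 0, MDAH points mostly to the right and SKOV3 points mostly to the left, and UBE2E2 reaches -3.02 and -3.07 with sh-SFPQ#3.

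Among the E1 enzymes, the SUMO and the NEDD8 pairs each had a subunit at the edge of the list, in opposite directions. SAE1 forms with UBA2 the heterodimer that activates SUMO. It measured 4.97 and 5.24 in the MDAH controls, 4.75 under sh-SFPQ#2 and 4.5 under sh-SFPQ#3. In SKOV3 cells it measured 5.99 and 5.96 in the controls, 5.08 under sh-SFPQ#2 and 4.85 under sh-SFPQ#3. All 4 silenced arrays lay below the controls of their line. Averaged over the lines SAE1 fell 1.68-fold (log2 change -0.75, SE 0.12, adjusted p = 0.0278), from -0.49 in MDAH cells (adjusted p = 0.174) and -1.01 in SKOV3 cells (adjusted p = 0.0629). The call was lost when 1 control array of either line or the sh-SFPQ#3 array of either line was left out, with log2 changes between -0.82 and -0.68 and adjusted p between 0.059 and 0.109. It was also lost with arrays centred on their median (adjusted p = 0.0522) and with no filter (adjusted p = 0.0527). Its partner UBA2, which carries the catalytic cysteine, averaged 0.08 (SE 0.15, adjusted p = 0.781).

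UBA3, the catalytic subunit of the NEDD8 E1, was the highest member in both lines. It measured 0.41 and 0.33 in the MDAH controls, 0.81 under sh-SFPQ#2 and 1.15 under sh-SFPQ#3. The SKOV3 arrays gave 0.99 and 1.11 in the controls, 1.37 under sh-SFPQ#2 and 1.68 under sh-SFPQ#3. All 4 silenced arrays lay above their controls, and the average of 0.54 (SE 0.13, adjusted p = 0.0608) did not pass the test. It passed under 7 of 17 alternatives, median centring among them (log2 change 0.58). UBA3 was the 1 member of 35 whose silenced arrays lay above both controls in both lines, against 12.4% of all genes. Its partner NAE1 measured 5.14 and 5.29 in the MDAH controls, 5.48 under sh-SFPQ#2 and 5.67 under sh-SFPQ#3, and 4.93 and 4.87 in the SKOV3 controls, 4.69 under sh-SFPQ#2 and 5.18 under sh-SFPQ#3. The silenced NAE1 arrays lay above the controls in MDAH cells and on both sides of them in SKOV3 cells.

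The ubiquitin E1 enzymes were higher in silenced MDAH cells and close to their controls in SKOV3 cells, without passing the test. UBA1, the E1 for most ubiquitin, measured 3.85 and 3.94 in the MDAH controls, 4.27 under sh-SFPQ#2 and 4.31 under sh-SFPQ#3. In SKOV3 cells UBA1 measured 3.63 and 3.90 in the controls, 3.86 under sh-SFPQ#2 and 3.51 under sh-SFPQ#3. UBA6, which also activates the modifier FAT10, measured -1.47 and -1.48 in the MDAH controls, -1.08 under sh-SFPQ#2 and -1.02 under sh-SFPQ#3. These groups did not overlap in MDAH cells, with changes of 0.40 (adjusted p = 0.239) for UBA1 and 0.43 (adjusted p = 0.148) for UBA6. In SKOV3 cells UBA6 measured -0.15 and 0.02 in the controls and -0.10 and -0.17 with sh-SFPQ#2 and sh-SFPQ#3, which overlapped.

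**Figure D2:**
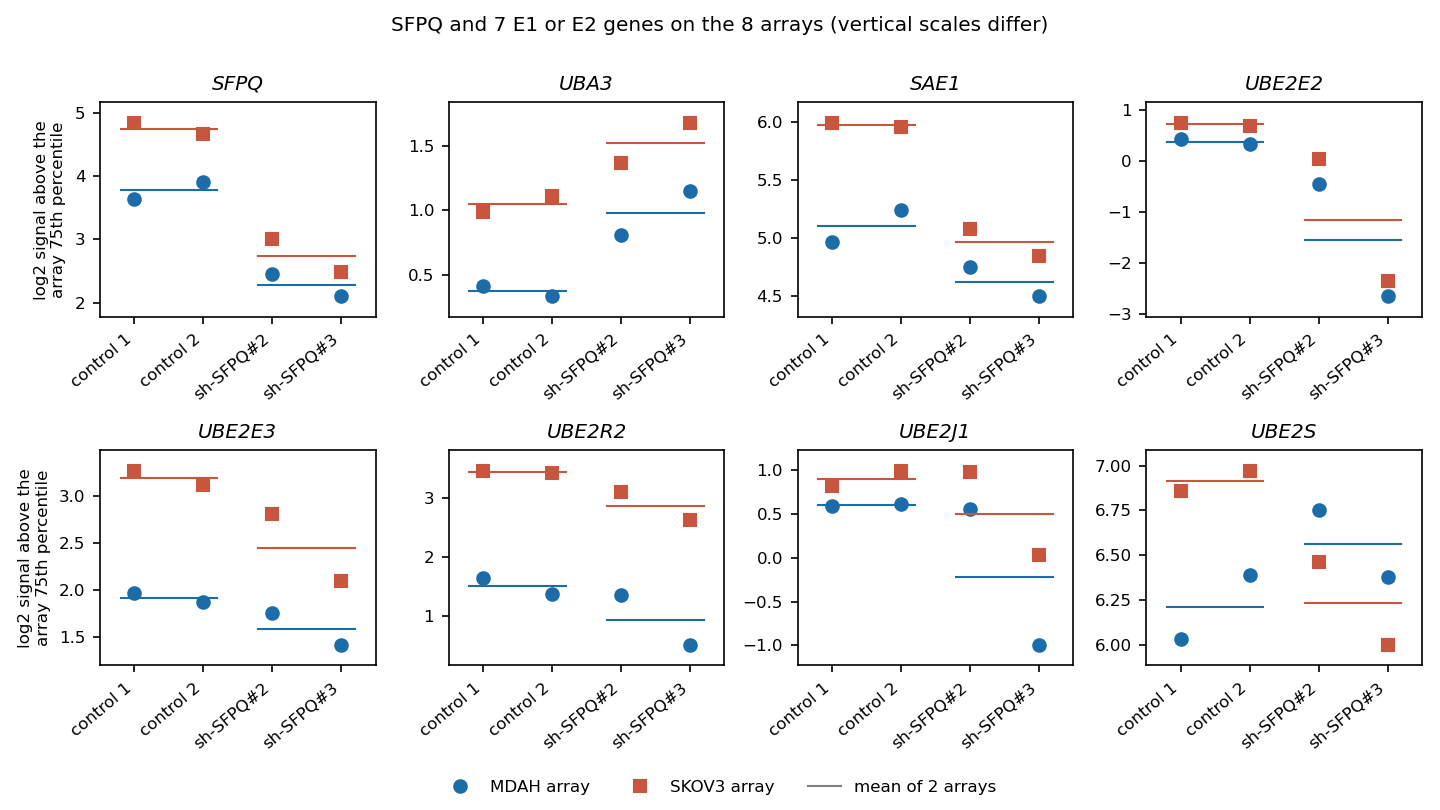
Log2 signal above the array's 75th percentile (y axis, scale differs by panel) of SFPQ and 7 E1 or E2 genes on each of the 8 arrays (x axis), with circles for MDAH, squares for SKOV3 and lines for the mean of 2 arrays. SAE1, UBE2E2, UBE2E3 and UBE2R2 lie below both controls in each line, UBA3 above them, and UBE2E2 and UBE2J1 lie far lower with sh-SFPQ#3 than with sh-SFPQ#2.

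The UBE2E enzymes, a family of closely related E2 enzymes with an extended N-terminus, held the lowest member on silencing. UBE2E2 measured 0.43 and 0.32 in the MDAH controls, -0.45 under sh-SFPQ#2 and -2.65 under sh-SFPQ#3. In SKOV3 cells it measured 0.74 and 0.69 in the controls, 0.03 under sh-SFPQ#2 and -2.35 under sh-SFPQ#3. Both shRNAs left it below the controls in both lines, and the array with sh-SFPQ#3 lay far below that with sh-SFPQ#2. Its average of -1.90 (SE 0.63, 3.73-fold lower, adjusted p = 0.119) did not pass the test, and the 2 silenced arrays of a line lay far apart. UBE2E3 measured 1.97 and 1.87 in the MDAH controls, 1.76 under sh-SFPQ#2 and 1.42 under sh-SFPQ#3, and 3.27 and 3.12 in the SKOV3 controls, 2.81 under sh-SFPQ#2 and 2.10 under sh-SFPQ#3. UBE2E3 too lay below both controls on every silenced array, by -0.54 on average (SE 0.18, adjusted p = 0.121), and its second probe gave -0.38. UBE2E1 measured -0.62 and -0.76 in the MDAH controls, -0.08 under sh-SFPQ#2 and -0.67 under sh-SFPQ#3, and -0.75 and -0.44 in the SKOV3 controls, -0.48 under sh-SFPQ#2 and -1.40 under sh-SFPQ#3. Its silenced arrays lay on both sides of the controls, with an average of -0.01 (SE 0.24, adjusted p = 0.979).

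The promoter windows of the UBE2E genes are shown because UBE2E2 and UBE2E3 lay below their controls together while UBE2E1 did not. Each is the first window that RefSeq lists for the gene (GRCh38.p14), from 250 bases before to 50 after the start, with the GC box GGGCGG and its reverse complement CCGCCC in capitals.
UBE2E1, chr3:23805705-23806004, + strand: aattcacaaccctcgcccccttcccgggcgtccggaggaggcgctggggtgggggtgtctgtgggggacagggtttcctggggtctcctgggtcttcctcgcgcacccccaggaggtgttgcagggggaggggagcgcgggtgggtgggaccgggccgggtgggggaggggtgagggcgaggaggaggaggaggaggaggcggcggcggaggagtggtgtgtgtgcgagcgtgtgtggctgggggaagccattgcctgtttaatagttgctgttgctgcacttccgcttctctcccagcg
UBE2E2, chr3:23202848-23203147, + strand: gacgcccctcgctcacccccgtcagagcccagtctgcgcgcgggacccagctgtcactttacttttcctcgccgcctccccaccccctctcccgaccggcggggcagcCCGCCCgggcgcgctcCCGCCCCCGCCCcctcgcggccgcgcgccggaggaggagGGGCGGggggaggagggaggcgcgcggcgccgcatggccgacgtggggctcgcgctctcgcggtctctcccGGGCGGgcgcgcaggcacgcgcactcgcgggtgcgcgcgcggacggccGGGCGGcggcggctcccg
UBE2E3, chr2:180980110-180980409, + strand: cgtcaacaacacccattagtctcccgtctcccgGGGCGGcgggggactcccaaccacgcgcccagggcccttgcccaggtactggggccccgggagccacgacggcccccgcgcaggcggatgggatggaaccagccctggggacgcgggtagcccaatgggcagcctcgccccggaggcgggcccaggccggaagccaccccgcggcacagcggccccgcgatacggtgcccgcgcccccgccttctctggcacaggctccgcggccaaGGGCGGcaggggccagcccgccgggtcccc
The motif was searched on both strands with overlapping matches counted, and 45% of 35116 promoter windows of this length hold it. The window of UBE2E2 holds 6 matches, that of UBE2E3 holds 2 and that of UBE2E1 holds 0. Of 29 members with a promoter in the table, 24 hold at least 1 match. No match says only that these letters are not in the window. The windows were picked after the levels were seen, and a part of the motif in those levels was not tested.

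The 2 shRNAs could be compared because each was used once in both lines. At an unadjusted p under 0.05 were 8 of 35 members, beside 2773 of 15561 genes. UBE2E2 was the 1 member of 35 called between the shRNAs, against 0.72% of all genes. It was 4.87-fold lower with sh-SFPQ#3 than with sh-SFPQ#2 (log2 difference -2.28, SE 0.14, adjusted p = 0.028), by -2.19 in MDAH and -2.38 in SKOV3 cells. Leaving out any array ended the call, with adjusted p between 0.0937 and 0.143, as did no filter (0.108) and a fit of the silenced arrays alone (0.143), and the test rests on 2 residual degrees of freedom. SFPQ was also lower with sh-SFPQ#3, by -0.44 (SE 0.17, adjusted p = 0.294). The 75th percentile of the sh-SFPQ#3 array was the lowest of all in MDAH cells, at 244, and was 466 in SKOV3 cells, and its part in the difference was not tested.

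Next lowest between the shRNAs was UBE2J1, an E2 anchored in the ER membrane. It measured 0.59 and 0.61 in the MDAH controls, 0.56 under sh-SFPQ#2 and -0.99 under sh-SFPQ#3. The SKOV3 arrays gave 0.82 and 0.99 in the controls, 0.98 under sh-SFPQ#2 and 0.03 under sh-SFPQ#3. Only the sh-SFPQ#3 arrays stood apart from the controls, and the difference of -1.25 between the shRNAs (SE 0.19, adjusted p = 0.0788) did not pass the test. The other ER-linked enzymes, UBE2G1, UBE2G2 and UBE2J2, were at 0.17, 0.37 and 0.14 in MDAH cells and at -0.47, -0.05 and -0.22 in SKOV3 cells, where UBE2G1 was well above background on 1 of 4 arrays. After UBE2J1 between the shRNAs came UBE2E1, at -0.75 (SE 0.19, adjusted p = 0.155). The highest differences were 0.35 for UBE2Q2, 0.34 for NAE1 and 0.32 for UBA3. UBE2Q2 measured 2.39 and 2.15 in the MDAH controls, 2.03 under sh-SFPQ#2 and 2.49 under sh-SFPQ#3, and 3.19 and 3.15 in the SKOV3 controls, 2.87 under sh-SFPQ#2 and 3.12 under sh-SFPQ#3. In all, 27 of 35 members were lower with sh-SFPQ#3, with a median of -0.16 beside 0.00 over all genes.

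The E2 enzymes for NEDD8 and most UBE2D enzymes lay above their controls in MDAH cells and below them in SKOV3 cells, and none was called. The pattern depended on the scaling. Of these genes only UBE2F and UBE2D1 kept it with quantile normalization, and only UBE2D1 with normexp and quantile normalization. UBE2M, which with UBE2F loads NEDD8 onto cullins, measured 2.74 and 2.95 in the MDAH controls, 3.25 under sh-SFPQ#2 and 3.13 under sh-SFPQ#3. In SKOV3 cells UBE2M measured 3.10 and 3.24 in the controls, 3.08 under sh-SFPQ#2 and 2.64 under sh-SFPQ#3. The silenced arrays lay above the controls in MDAH cells and below them in SKOV3 cells, and the difference between the lines of -0.66 (SE 0.27, adjusted p = 0.333) did not pass the test. UBE2F was at 0.13 in MDAH cells and -0.17 in SKOV3 cells. UBE2D1, UBE2D2 and UBE2D3, which serve a wide range of RING and HECT ligases, had changes of 0.24 to 0.25 in MDAH cells, all above 0, and of -0.27 to -0.13 in SKOV3 cells, all below 0. UBE2D4 went the other way in both, at 2.35 and 2.43 in the MDAH controls, 2.48 under sh-SFPQ#2 and 1.83 under sh-SFPQ#3, and at 2.43 and 2.74 in the SKOV3 controls, 2.83 under sh-SFPQ#2 and 2.62 under sh-SFPQ#3. Its groups overlapped in both lines, and its 0.14 in SKOV3 cells became -0.01 with the mean of its probes and without SKOV3 control 1.

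UBE2S, which lengthens ubiquitin chains for the anaphase-promoting complex (APC/C), had the largest difference in change between the lines. It measured 6.03 and 6.39 in the MDAH controls, 6.75 under sh-SFPQ#2 and 6.38 under sh-SFPQ#3. In SKOV3 cells it measured 6.86 and 6.97 in the controls, 6.46 under sh-SFPQ#2 and 6.0 under sh-SFPQ#3. The groups overlapped in MDAH cells (0.35, SE 0.23) and not in SKOV3 cells (-0.69, SE 0.23, adjusted p = 0.186), and the difference between the lines was -1.04 (SE 0.33, adjusted p = 0.267). The 11 proliferation genes tested went the same way, with 11 of 11 above 0 in MDAH cells (median 0.52), 10 of 11 below 0 in SKOV3 cells (median -0.57) and none called, and their part in the values of the E2 genes was not tested.

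Of the DNA damage enzymes, the RAD6 proteins UBE2A and UBE2B, which ubiquitinate PCNA and histone H2B, did not pass the test. UBE2B measured -0.96 and -1.09 in the MDAH controls, -0.21 under sh-SFPQ#2 and -0.81 under sh-SFPQ#3. It measured -0.05 and 0.01 in the SKOV3 controls, 0.05 under sh-SFPQ#2 and -0.20 under sh-SFPQ#3. UBE2A was at 0.18 (adjusted p = 0.468) in MDAH cells and -0.05 in SKOV3 cells. The groups of UBE2B did not overlap in MDAH cells (0.52, SE 0.22, adjusted p = 0.227) and did in SKOV3 cells. UBE2V2, which with UBE2N builds chains used in damage tolerance, measured 0.39 and 0.35 in the MDAH controls, 0.83 under sh-SFPQ#2 and 0.88 under sh-SFPQ#3, and 1.46 and 1.49 in the SKOV3 controls, 1.35 under sh-SFPQ#2 and 1.69 under sh-SFPQ#3. It too stood above the MDAH controls (0.48, SE 0.16, adjusted p = 0.153) and overlapped in SKOV3 cells. UBE2T, the E2 of the Fanconi anaemia pathway that repairs crosslinks, measured 5.10 and 5.39 in the MDAH controls, 5.57 under sh-SFPQ#2 and 5.52 under sh-SFPQ#3, and 5.15 and 5.16 in the SKOV3 controls, 5.08 under sh-SFPQ#2 and 4.89 under sh-SFPQ#3. Its average was 0.06 (SE 0.11, adjusted p = 0.769). UBE2N and UBE2V1 averaged -0.11 and -0.03, and the second probe of UBE2V1 gave -0.40.

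Of the remaining E2 enzymes, UBE2R2, a relative of CDC34 that works with SCF ligases, lay below its controls in both lines. It measured 1.65 and 1.37 in the MDAH controls, 1.36 under sh-SFPQ#2 and 0.52 under sh-SFPQ#3, and 3.45 and 3.42 in the SKOV3 controls, 3.09 under sh-SFPQ#2 and 2.62 under sh-SFPQ#3. In MDAH cells the sh-SFPQ#2 array was barely below control 2, and the average was -0.58 (SE 0.21, adjusted p = 0.15). UBE2Z, the E2 for FAT10, measured 3.10 and 3.08 in the MDAH controls, 3.48 under sh-SFPQ#2 and 2.97 under sh-SFPQ#3, and 4.34 and 4.24 in the SKOV3 controls, 4.62 under sh-SFPQ#2 and 4.12 under sh-SFPQ#3. Its 2 shRNAs lay on opposite sides of the controls in both lines. UBE2H measured 2.45 and 2.38 in the MDAH controls, 2.47 under sh-SFPQ#2 and 1.98 under sh-SFPQ#3, and 2.87 and 2.92 in the SKOV3 controls, 2.95 under sh-SFPQ#2 and 2.74 under sh-SFPQ#3, which overlapped in both lines. The averages of UBE2K, UBE2L3, UBE2O, UBE2Q1, UBE2Q2 and UBE2W lay between -0.30 (UBE2L3) and 0.08 (UBE2O). The second probe of UBE2L3 averaged 0.08, and in SKOV3 cells it gave 0.05 where the first gave -0.53.

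Counted by whether arrays overlapped, with no test, 4 of 35 members (SAE1, UBE2E2, UBE2E3 and UBE2R2) lay below both controls in both lines, against 10.3% of all genes. With median centring 1 of them did, UBE2E2, against 7.12% of all genes. A further 12 of 35 (34.3%) lay above the controls in MDAH cells and below them in SKOV3 cells, against 8.37% of all genes, namely UBE2F, UBE2M, UBE2D1, UBE2D2, UBE2D3, UBE2V1, UBE2T, UBE2G2, UBE2J2, UBE2K, UBE2O and UBE2W. The reverse pattern held for 0 of 35, against 3.37% of all genes. The count of 12 depended on the scaling and became 3 with quantile normalization, against 4.5% of all genes, and 4 with normexp and quantile normalization, against 4.1%. With the mean of all probes of a gene it stayed at 12, against 8.37% of all genes, with UBE2A in place of UBE2V1. The second probe of UBE2V1 gave -0.14 in MDAH cells. The difference between the lines, taken as the SKOV3 change minus the MDAH change, was below 0 for 31 of 35 members, with a median of -0.42 beside -0.12 over all genes, and with quantile normalization for 27 of 35, with a median of -0.22 beside -0.02.

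The unsilenced lines differed far more than silenced cells did from their controls. Between SKOV3 and MDAH controls 21 of 35 members were called, beside 57.4% of all genes, 20 of them higher in SKOV3 cells, beside 30.7% of all genes called in that direction. The members' median difference was 0.63, beside 0.05 over all genes, and 0.42 beside 0.00 with quantile normalization. Highest in SKOV3 cells were UBE2R2, at 3.79-fold (log2 1.92, SE 0.30, adjusted p = 0.00176), UBE2N, at 3.28-fold (1.71, SE 0.14, adjusted p = 0.000103), UBA6, at 2.65-fold (1.41, SE 0.14, adjusted p = 0.00024), and UBE2E3, at 2.42-fold (1.27, SE 0.25, adjusted p = 0.00493). UBE2N, the catalytic partner of UBE2V1 and UBE2V2, measured -0.09 and -0.13 in the MDAH controls and 1.62 and 1.59 in the SKOV3 controls. Its silenced arrays stayed close to their line, at -0.11 and -0.13 in MDAH cells and at 1.48 and 1.29 in SKOV3 cells. Lower in SKOV3 cells without passing the test were NAE1 (-0.32, SE 0.20, adjusted p = 0.211), UBA1 (-0.13, SE 0.18, adjusted p = 0.568) and UBE2T (-0.09, SE 0.16, adjusted p = 0.657), and with median centring the last 2 were at 0.02 and 0.06. With normexp and quantile normalization all 3 passed as lower in SKOV3 cells, at -0.57 (adjusted p = 0.0283), -0.37 (adjusted p = 0.0465) and -0.34 (adjusted p = 0.043). In these bulk samples a smaller share of expressing cells and less RNA per cell cannot be told apart.

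**Figure D3:**
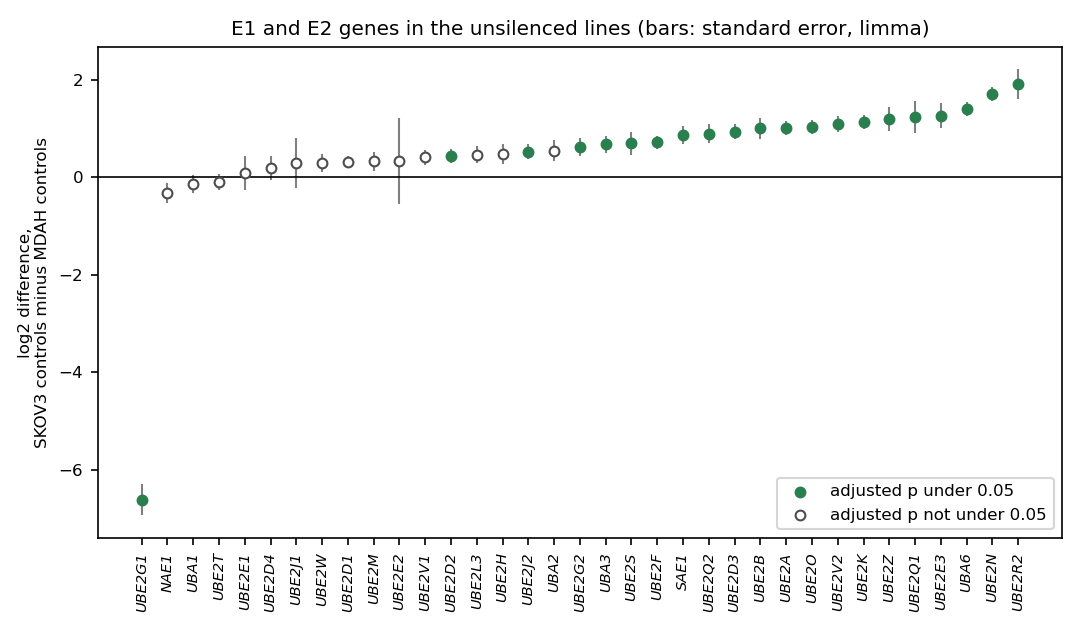
Log2 difference between the control arrays of SKOV3 and MDAH cells (y axis, points with standard errors from limma) for 35 E1 and E2 genes in rising order (x axis), with filled points for an adjusted p under 0.05. The 20 filled points above 0 reach 1.92 (UBE2R2), and UBE2G1 stands alone at -6.62.

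UBE2G1, an E2 that extends ubiquitin chains on substrates of cullin ligases, was the exception. It measured 2.53 and 2.33 in the MDAH controls and -3.78 and -4.59 in the SKOV3 controls. With sh-SFPQ#2 and sh-SFPQ#3 it measured 2.58 and 2.61 in MDAH cells and -4.33 and -4.98 in SKOV3 cells. In SKOV3 cells only control 1 was well above background. The MDAH controls were 98-fold above the SKOV3 controls (log2 difference -6.62, SE 0.32, adjusted p = 1.12e-05), with 1 of the 2 SKOV3 controls well above background, and the gene passed the filter through the MDAH arrays. The size depended on the background correction, with a log2 difference of -4.66 under normexp and quantile normalization. Silenced MDAH cells measured 152-fold above silenced SKOV3 cells. Neither silenced SKOV3 array was well above background, so the size of that ratio is uncertain. The gene was measured by 1 probe. Its neighbours were looked at after its value was seen. Between the unsilenced lines 4166 of all 15561 genes were called lower in SKOV3 cells and 4773 higher. Of the 10 nearest tested genes in the RefSeq order of chromosome 17, 5 on each side, 5 were called lower in SKOV3 cells and 1, ZZEF1, higher (2.71, SE 0.14, adjusted p = 1.49e-05). The lower ones were CAMKK1 (-2.80, SE 0.52), MYBBP1A (-1.39, SE 0.21), PELP1 (-0.83, SE 0.16), and CYB5D2 and ATP2A3, which were well above background on 5 and 4 of 8 arrays. In the SKOV3 controls CYB5D2 was at -4.39 and -4.46 and ATP2A3 at -5.93 and -5.76. A dim gene that passes the filter through the MDAH arrays alone can be called only as lower in SKOV3 cells. No conclusion about the region is drawn from the count.

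The other genes of these cascades were read from lists chosen together with the members. Of 13 other E1 and E2 genes tested, 2 were called across both lines, beside 5.64% of all genes. UBA7, the E1 for the interferon-induced modifier ISG15, measured -4.22 and -4.72 in the MDAH controls, -3.79 and -3.66 in silenced MDAH cells, -2.71 and -2.79 in the SKOV3 controls and -1.93 and -1.92 in silenced SKOV3 cells. It rose by 0.78 (SE 0.14, adjusted p = 0.0296), with all silenced arrays above their controls, and by 0.32 with normexp. ATG10, an E2-like enzyme of autophagy, measured 0.41 and 0.04 in the MDAH controls, -0.69 and -0.90 in silenced MDAH cells, -1.26 and -1.03 in the SKOV3 controls and -2.19 and -2.49 in silenced SKOV3 cells. It fell by 1.11 on the log2 scale (SE 0.14, adjusted p = 0.0153), with all silenced arrays below their controls. Leaving out 1 array ended the call of UBA7 for each control and each sh-SFPQ#3 array (adjusted p up to 0.0927) and that of ATG10 for each MDAH control and SKOV3 control 2 (adjusted p up to 0.0918). The call of UBA7 was also lost with no filter (adjusted p = 0.0563) and with a robust prior (adjusted p = 0.0503). Of 11 modifier genes none was called, beside 5.64% of all genes in the average. The modifier genes ran from SUMO3 at -0.20 (adjusted p = 0.335) to ISG15 itself at 0.78 (adjusted p = 0.13).

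On the SUMO side, 2 of 14 ligases and proteases were called in the average, beside 5.64% of all genes, both lower. NSMCE2, a SUMO ligase of the SMC5/6 complex, measured 1.59 and 1.47 in the MDAH controls, -0.21 under sh-SFPQ#2 and -2.05 under sh-SFPQ#3, and 1.64 and 1.77 in the SKOV3 controls, 0.28 under sh-SFPQ#2 and -1.48 under sh-SFPQ#3. It fell by 2.48 (SE 0.50, adjusted p = 0.0422) and was lower with sh-SFPQ#3 than with sh-SFPQ#2 by 1.8 on the log2 scale (adjusted p = 0.028). PIAS2, another SUMO ligase, measured -0.20 and -0.15 in the MDAH controls, -0.21 and -0.33 in silenced MDAH cells, 2.82 and 2.74 in the SKOV3 controls and 1.81 and 1.39 in silenced SKOV3 cells. It fell by 1.18 in SKOV3 cells (adjusted p = 0.0449) and was at -0.10 in MDAH cells (adjusted p = 0.771), and the difference between the lines of -1.08 did not pass the test (adjusted p = 0.192). Of 14 ligases and targets of DNA repair 1 was called, in MDAH cells and in the average, beside 2.03% and 5.64% of all genes. It was FANCL, the ligase that works with UBE2T. FANCL measured 3.51 and 3.65 in the MDAH controls, 2.51 and 2.47 in silenced MDAH cells, 3.65 and 3.47 in the SKOV3 controls and 3.35 and 3.32 in silenced SKOV3 cells. It fell by 1.09 in MDAH cells (adjusted p = 0.0223) and by 0.66 on average (adjusted p = 0.0234), with -0.23 in SKOV3 cells (adjusted p = 0.425). The averages of NSMCE2, PIAS2 and FANCL lost their calls when any control or any sh-SFPQ#3 array was left out, with values between -2.94 and -2.02, between -0.74 and -0.54 and between -0.70 and -0.61 without 1 array (adjusted p up to 0.167, 0.149 and 0.109). With median centring and with no filter the averages of NSMCE2 (adjusted p = 0.0513 and 0.0722) and PIAS2 (adjusted p = 0.0692 and 0.0711) lost their calls too, as did PIAS2 in SKOV3 cells (adjusted p = 0.0674 and 0.0792). With the line fitted alone PIAS2 in SKOV3 cells (adjusted p = 0.177) and FANCL in MDAH cells (adjusted p = 0.0762) were not called, and NSMCE2 between the shRNAs was not with no filter (adjusted p = 0.111) or with the silenced arrays alone (adjusted p = 0.143). The call of PIAS2 in SKOV3 cells ended without any array but SKOV3 sh-SFPQ#2, that of FANCL in MDAH cells without either MDAH control or MDAH sh-SFPQ#3, and that of NSMCE2 between the shRNAs without any array.

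Over all genes the share called on silencing was 2.03% (MDAH), 0.996% (SKOV3) and 5.64% (average). Beside these shares, no gene was called among 25 cullin and neddylation genes, 17 APC/C genes and 10 genes of ER-associated degradation (limma). Their averages ran from CUL5 at -0.34 (adjusted p = 0.17) to CAND2 at 0.85 (adjusted p = 0.371), the latter well above background on 5 of 8 arrays, from ANAPC10 at -0.59 (adjusted p = 0.0582) to ANAPC2 at 0.44 (adjusted p = 0.211), and from SEL1L at -0.60 (adjusted p = 0.34) to SYVN1, the partner ligase of UBE2J1, at 0.45 (adjusted p = 0.102). At an unadjusted p under 0.05 in the average were 4 of 25, 2 of 17 and 3 of 10, beside 4107 of all 15561 genes. The medians of these lists lay above 0 in MDAH cells and below 0 in SKOV3 cells, as the members' did. The medians over all genes had the same signs, at 0.10 and -0.04. The lists were at 0.14 and -0.11 for the cullin list, 0.11 and -0.12 for the APC/C list and 0.24 and -0.03 for the degradation list.

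**Figure D4:**
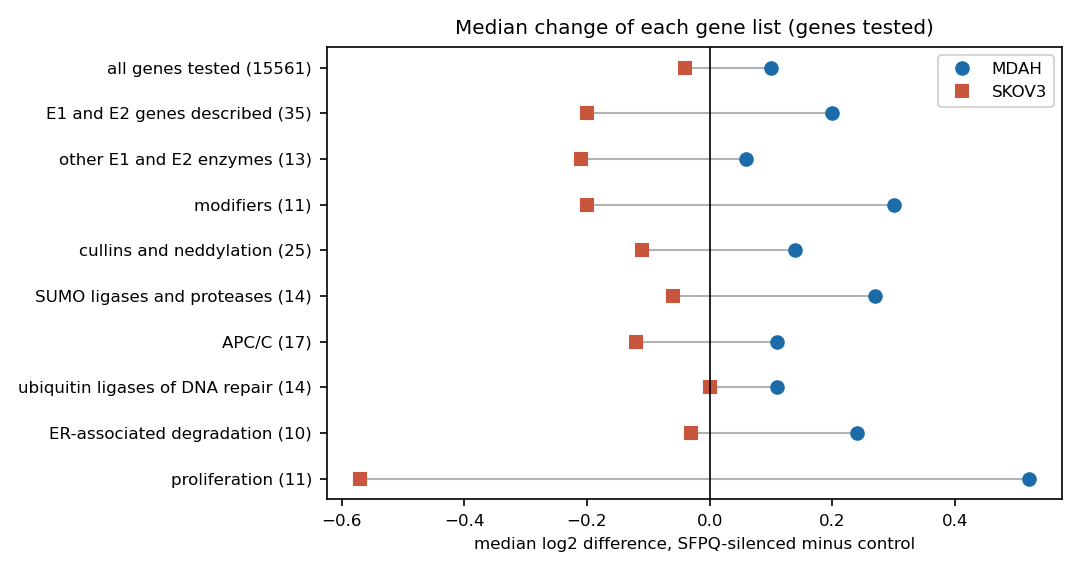
Median log2 difference between SFPQ-silenced and control cells (x axis) over the tested genes of each list (y axis, number of genes in brackets), with circles for MDAH and squares for SKOV3. The proliferation list is the widest apart, at 0.52 and -0.57, the E1 and E2 genes lie at 0.20 and -0.20, and all genes at 0.10 and -0.04.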

How the data were processed

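RNA of 8 samples, 1 per array and 2 per group, was labelled with Cy3. Per the file headers, the authors extracted the spots with Agilent Feature Extraction 11.5.1.1 (the submitters' processing notes name 10.7.3.1) and deposited background-subtracted signal intensity on a linear scale. They also deposited a table of log2 values, which was found to hold quantile-normalized log2 signal minus each probe's median (r above 0.999 on each array, recomputed), used as an alternative. All arrays lay on 1 slide and in 1 scan, each line in its own row with controls before silenced samples, so that position and group cannot be told apart.

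Control spots and outlier spots (209 to 310 per array) were removed. Log2 intensity was averaged over the spots of a probe and set relative to the array's 75th percentile. Probes were named by RefSeq accession (28174 of 50599 probes, 20503 genes), the brightest probe stood for a gene, and a gene was tested when in 1 group or more its probe was well above background on each array. For 11 members with 2 probes the sign was the same in 8 (MDAH), 9 (SKOV3) and 10 (unsilenced lines) of 11, with the largest gaps at 0.34 for UBE2V1, 0.58 for UBE2L3 and 0.95 for UBE2J2. All groups were fitted together in limma 3.58.1 (R 4.3.3; 4 residual and 2.69 prior degrees of freedom), after tests on simulated data. The shRNAs were compared in a second limma fit of all arrays, with added terms for the control and shRNA number (2 residual degrees of freedom). With 2 arrays a group, their number limits the precision.

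The members, the lists and the rule for named genes (SFPQ, members called, the 3 highest and 3 lowest in each silencing and shRNA comparison, the 4 highest and 4 lowest between lines, list genes called or otherwise the highest and lowest average) were chosen with earlier results of these data known. The alternatives were other scalings, background corrections, filters and probe choices, a robust prior, a replicate block and leaving out each array, run on the list genes called after the data were seen.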

Additional observations from a re-analysis of the deposited data

Results flagged for a closer look

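UBE2E2 differed between the shRNAs in a test of that difference itself. With sh-SFPQ#2 it stood at -0.83 from the MDAH controls and at -0.69 from the SKOV3 controls on the log2 scale, and with sh-SFPQ#3 at -3.02 and -3.07. The change with sh-SFPQ#3 minus that with sh-SFPQ#2 was -2.28 (SE 0.14, adjusted p = 0.028 by limma over 15561 genes), in the same direction in both lines. Across 17 alternatives it ranged from -2.43 to -1.54, with adjusted p between 0.000723 and 0.143.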

How the results depend on the processing

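The count of members called rests on 2 arrays a group and depended on the settings. On silencing in MDAH cells it was 0 and became 1 (UBE2E2) with a replicate block, beside 5.51% of all genes. In SKOV3 cells it was 0 and became 1 (SAE1) with normexp, with a filter on all 8 arrays and with a robust prior, and 2 (SAE1 and UBE2E2) with the block, beside 0.919% to 1.95% and 4.41% of all genes. In the average it was 1 and became 2 under normexp, that filter and the robust prior, 0 with no filter, 5 (SAE1, UBA3, UBE2E2, UBE2E3 and UBE2R2) with the block, and between 0 and 4 without 1 array: 4 without SKOV3 sh-SFPQ#2, 3 without MDAH sh-SFPQ#2 and 0 without any of the others. The share of all genes called moved with it, from 5.64% to between 7.45% and 8.94% under normexp, that filter and the robust prior, 1.81% with no filter, 11.4% with the block and 0.206% (without MDAH control 1) to 10.8% without 1 array. Between the shRNAs it was 1 and became 3 under normexp, the stricter filter and the robust prior, beside 3.7% to 5.43% of all genes, and 0 with no filter, with the 4 silenced arrays alone and without any 1 array. The median change in MDAH cells was 0.20, 0.08 with quantile normalization, 0.31 with median centring, 0.05 with normexp, 0.08 in the authors' table and between 0.14 and 0.21 without 1 array. The count above the controls in MDAH and below them in SKOV3 cells was 12, 3 with quantile normalization, 4 with normexp and 3 in the authors' table, and the count below controls in both lines was 4 and became 1 with median centring, alternatives chosen after the data were seen. The cause was not tested.

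The replicate block paired arrays of the same number across lines, since controls are numbered 1 and 2 and silenced arrays 2 and 3. Deviations of same-numbered arrays correlated at 0.0777 for controls and 0.363 for shRNAs, and the numbers name no shared culture.

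Values near 0 turned sign. The change of UBE2D4 in SKOV3 cells became -0.01 with the mean of its probes and lay between -0.01 (without SKOV3 control 1) and 0.30 without 1 array, and that of UBE2Z between -0.17 (without SKOV3 sh-SFPQ#2) and 0.33. Without 1 array the difference between lines of UBE2J1 lay between -0.36 (without MDAH sh-SFPQ#3; -0.06 without SKOV3 sh-SFPQ#2) and 1.19, and that of UBE2H between -0.11 (without MDAH sh-SFPQ#3) and 0.39, with -0.01 under median centring and -0.14 with the mean of its probes. Between the unsilenced lines UBA1 was at 0.02 with median centring and between -0.27 and 0.01 (without SKOV3 control 1) without 1 array, and UBE2T at 0.06 with median centring and between -0.24 and 0.06 (without MDAH control 2) without 1 array, while with normexp both, and NAE1, passed as lower in SKOV3 cells. The other named members kept their direction under the alternatives run. Median centring moved the median of all genes from 0.10 to 0.21 in MDAH cells.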
